A study of Mus musculus with 8 samples.

Results

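The region examined is the mouse major histocompatibility complex, the H2 complex on chromosome 17, taken from H2-K1 to the H2-M genes. Its members are all deposited accessibility peaks that lie fully between 34.05 and 37.35 Mb of the mm9 build, a stretch of 3.3 Mb. This position rule used no measured value and found 479 of the 126871 peaks of the study, or 479 of the peaks on a chromosome that held 5212 more outside the region. Hematopoietic stem cells (HSCs) were sorted from bone marrow of C57BL/6 mice by FACS as LSK CD150+ CD48- cells, the gate that enriches for long-term stem cells. Chromatin accessibility was measured by bulk Omni-ATAC-seq, in which a transposase inserts sequencing adapters into open chromatin. The groups were 4 libraries of old HSCs, here Old, and 4 of young HSCs, here Young, each with replicate numbers 1 to 4 and with no genetic change or treatment named. Ages, sex and the animals behind each replicate are not stated in the labels used here. The p-values below therefore reflect variation among libraries that may be technical replicates, and whatever else differed between the groups cannot be told apart from age. Sorted cells were not checked against marker genes, because no mm9 annotation was used.

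The major histocompatibility complex encodes the proteins that display peptides to T cells. Class I molecules, such as those encoded by H2-K1 and H2-D1, sit on nearly all nucleated cells and show peptides from inside the cell to CD8 T cells, and interferons and NF-kB raise their transcription. Class II molecules, such as the product of H2-Aa with its partner chain, are made chiefly by dendritic cells, macrophages and B cells, and their transcription depends on the co-activator CIITA acting at a conserved set of promoter boxes. Between these lie the peptide transporter and immunoproteasome genes and the class III genes for complement and tumour necrosis factor, and beyond them the H2-Q, H2-T and H2-M families of non-classical class I genes. In the RefSeq annotation of a later build (GRCm38.p6) the interval from H2-K1 to H2-M2 held 283 genes, of which 169 were protein-coding and 45 carried an H2- symbol. Positions were not carried between builds, so that interval may not have the same ends as the region examined here. For the same reason no peak below is assigned to a gene, exon or intron.

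Promoters of 3 genes that stand for the class I and class II systems are shown to give the elements on which accessibility here would bear. They come from RefSeq (GRCm38.p6), cover the 250 bases before the gene's start, run 5′ to 3′ on the gene's strand, and were not matched to any peak. Capitals mark every match, on either strand, to GGGATTCCC (the NF-kB element of class I enhancers), GTTTCACTT (the interferon-response element), ATTGG (the Y or CCAAT box) and TGACGTCA (the cyclic AMP element type of the X2 box).
H2-K1: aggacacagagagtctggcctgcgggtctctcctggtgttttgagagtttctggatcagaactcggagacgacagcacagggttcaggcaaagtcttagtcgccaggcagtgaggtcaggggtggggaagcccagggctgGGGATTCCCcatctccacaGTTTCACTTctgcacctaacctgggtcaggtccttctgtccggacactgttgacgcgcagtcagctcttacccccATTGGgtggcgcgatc
H2-D1: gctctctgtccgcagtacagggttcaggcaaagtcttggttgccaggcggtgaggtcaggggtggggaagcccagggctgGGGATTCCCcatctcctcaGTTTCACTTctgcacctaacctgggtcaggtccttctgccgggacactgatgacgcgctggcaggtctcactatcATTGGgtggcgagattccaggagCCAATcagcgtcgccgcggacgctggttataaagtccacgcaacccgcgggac
H2-Aa: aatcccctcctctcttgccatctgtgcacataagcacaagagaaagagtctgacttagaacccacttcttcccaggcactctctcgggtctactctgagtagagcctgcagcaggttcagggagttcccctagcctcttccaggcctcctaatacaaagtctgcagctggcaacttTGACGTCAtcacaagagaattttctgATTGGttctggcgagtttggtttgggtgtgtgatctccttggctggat
The 2 classical class I promoters both held the NF-kB and the interferon element, which occur in 0.311% and 0.352% of 27025 promoters of this length. Of 14 non-classical class I genes with a listed promoter, 7 held the interferon element (H2-Q4, H2-Q6, H2-Q7, H2-Q10, H2-T22, H2-T3 and H2-M3) and 2, H2-Q6 and H2-Q7, the NF-kB element. None of the 8 class II promoters held either of them, 7 held the Y box, which 34.5% of all promoters hold, and H2-Aa held TGACGTCA, found in 1.62% of all. These matches describe letters, not binding.

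Library totals ran from 4200905 to 5129684 counts, and the region took 25834 to 34191 of them. Tested member peaks had 67 to 6115 counts over the 8 libraries. In this region Old replicate 4 was less like its own group than the rest. Its mean Pearson correlation of log2 CPM (counts scaled to a common library size by TMM, plus 0.5) across the 365 tested member peaks was 0.937 with the other Old and 0.949 with the Young libraries, where peaks are not independent replicates. Correlations were 0.962 to 0.967 among Young, 0.930 to 0.972 among Old and 0.880 to 0.965 between the groups. Results that it moved by over 1.5 times are given with and without it.

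The complex is densely packed with accessible sites in HSCs, and their summed level was nearly the same in both groups. Member peaks numbered 145 per Mb, a median of 3895 bases apart, and covered 8.46% of the region. Of them 76.2% had enough counts to be tested, against 59.6% on the rest of chromosome 17. Tested member peaks had a median level of 8.17 CPM, against 6.71 CPM on the rest of the chromosome, and 29.04% of them were above 20 CPM, against 20.8%. The summed level of all member peaks was 6577, 6621, 6782 and 7068 CPM in Old replicates 1 to 4 and 6601, 6717, 6512 and 6583 CPM in Young replicates 1 to 4. Only Old replicates 3 and 4 lay above the Young range, and the groups overlapped. The log2 ratio of region counts to counts on the rest of chromosome 17 was -2.86 ± 0.051 in Old and -2.90 ± 0.028 in Young (SD, n = 4 each). The difference of 0.041 was no larger than the SD of the Old libraries and was 0.018 without Old replicate 4. A sum over members gets no test here.

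**Figure D1:**
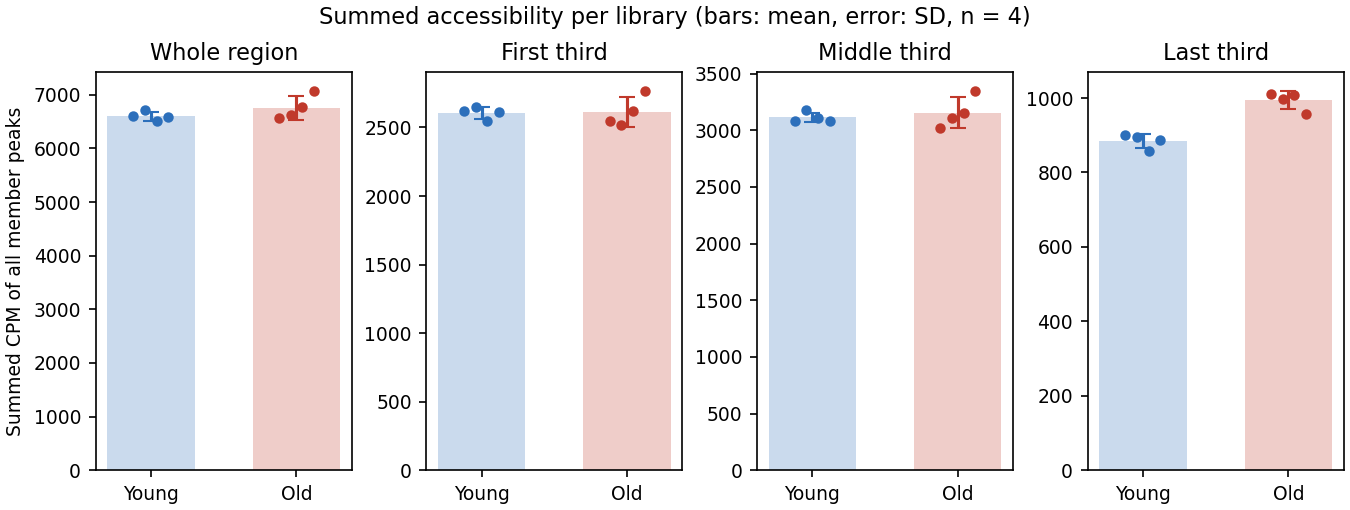
Summed CPM of all member peaks per library (y axes start at 0) for the whole region and its 3 segments of 1.1 Mb. Bars are means, error bars SD (n = 4) and points libraries. Old and Young points overlap except in the last panel, where Old lies at 958 to 1010 and Young at 858 to 900 CPM.

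Single sites did change, in both directions and about as often as elsewhere. Of 365 tested member peaks 42 were higher and 35 lower in Old (quasi-likelihood test of edgeR, adjusted by Benjamini-Hochberg over all tested peaks, below 0.05), together 21.1%, where the share was 20.5% of all 73164 tested peaks and 19.9% on the rest of chromosome 17. By direction, 11.5% were higher and 9.59% lower, against backgrounds of 10% and 10.4%. These shares are near the background and are not a result about the complex. The Old and Young libraries did not overlap at 71 tested member peaks, 34 with Old above and 37 with Old below, which is 19.5% against 21.1% of all tested peaks. The median log2 fold change, Old over Young, was -0.019 in the region, -0.024 on the rest of the chromosome and 0.010 over all tested peaks. The median absolute log2 fold change was 0.24 in the region, 0.29 on the rest of the chromosome and 0.29 over all peaks, a difference that was not tested.

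Counts of called peaks moved with the libraries used. Without Old replicate 4 there were 49 higher and 61 lower member peaks, and 29.6% of the tested ones were called, against 30.1% on the rest of the chromosome. The number higher was 26 without Old replicate 3. The number lower was 18, 19 and 21 without Old replicates 1, 2 and 3, and 23 and 22 without Young replicates 1 and 4. With the test of DESeq2 there were 26 higher and 21 lower, or 12.9% of the tested member peaks against 13.4% on the rest of the chromosome.

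**Figure D2:**
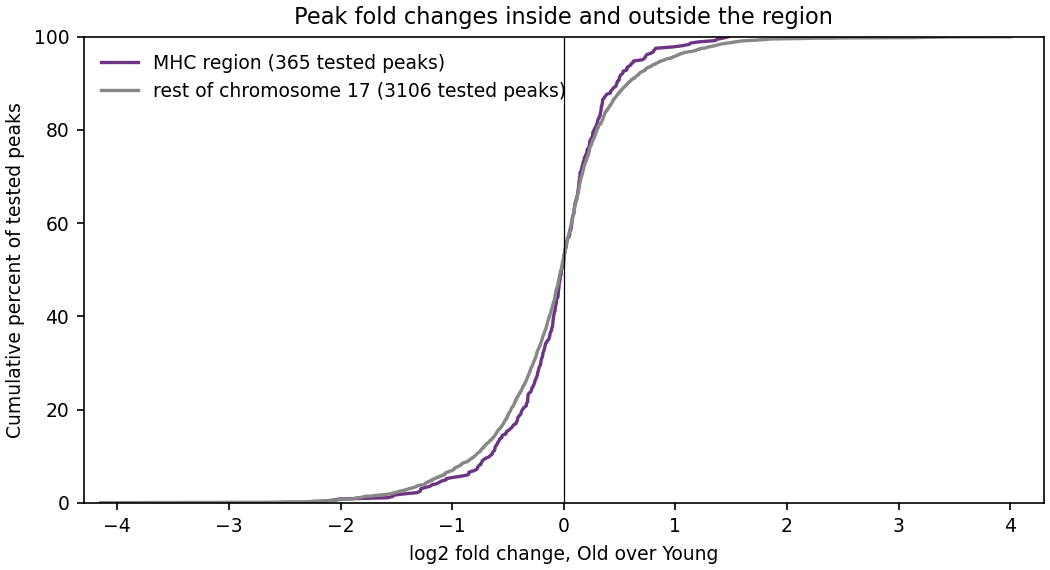
Cumulative percent (y axis) of tested peaks by log2 fold change, Old over Young (x axis), for the MHC region and the rest of chromosome 17. Both curves cross 0 near the middle, with medians of -0.019 and -0.024, and the MHC curve is the steeper one, with quartiles at -0.27 and 0.21.

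Member peaks that rose had a median width of 945 bases and a median level of 26.5 CPM, and rose by a median of 0.49 on the log2 scale. Peaks that fell had a median width of 572 bases, a median level of 6.14 CPM and a median log2 fold change of -0.99. Called gains were also wider and stronger than called losses over all peaks, at 735 bases and 9.04 CPM against 604 bases and 6.62 CPM. The median gain over all peaks was 0.88 and the median loss -0.98. None of these differences was tested. A change of over 2-fold was fitted at 8 of the 42 member peaks called higher and at 17 of the 35 called lower, or 19% and 48.6%, where over all peaks 41.8% of called gains and 48.5% of called losses changed by that much. The share among losses is near the background. On the log2 scale 21 of the member peaks called higher changed by less than 0.5.

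Most of the strong gains were small. Among the 106 tested member peaks at 20 CPM or more, a split made after the data were seen, 24 were higher and 7 lower, together 29.2%, against 19.5% of such peaks on the rest of chromosome 17 and 22.1% of all such peaks. Gains outnumbered losses among strong peaks elsewhere as well: 14.3% of all peaks at this level were higher and 7.84% lower, 11.7% and 7.73% on the rest of the chromosome, and 22.6% and 6.6% in the region. The gap from the chromosome depended on the scaling, the count filter, the test and the libraries used. With loess offsets against peak strength 14 were higher and 7 lower, or 19.8% against 18.2% and 19.7%, so that the share of gains among calls was also smaller. When the table was limited to peaks averaging 50 counts or more, 15 were higher and 7 lower, or 20.8% against 18.1% and 19.8%. DESeq2 called 14 higher and 4 lower, and edgeR without a count filter 24 and 4. The number lower was 3 without Old replicate 1, 2 or 3 or Young replicate 4, and 4 without Young replicate 1. It was 13 without Old replicate 4. Without Young replicate 3 the number higher was 15. Leaving out Old replicate 4 gave 34.0% against 30.0% and 31.8%, and leaving out Old replicate 2 gave 19.8% against 12.5% and 14.6%. Below 5 CPM, where 108 member peaks were tested, 7 were higher and 14 lower, together 19.4%, near the 17.6% of all such peaks, of which 7.63% were higher and 10% lower. The median called gain there was 1.21 on the log2 scale, against 1.36 over all such peaks.

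**Figure D3:**
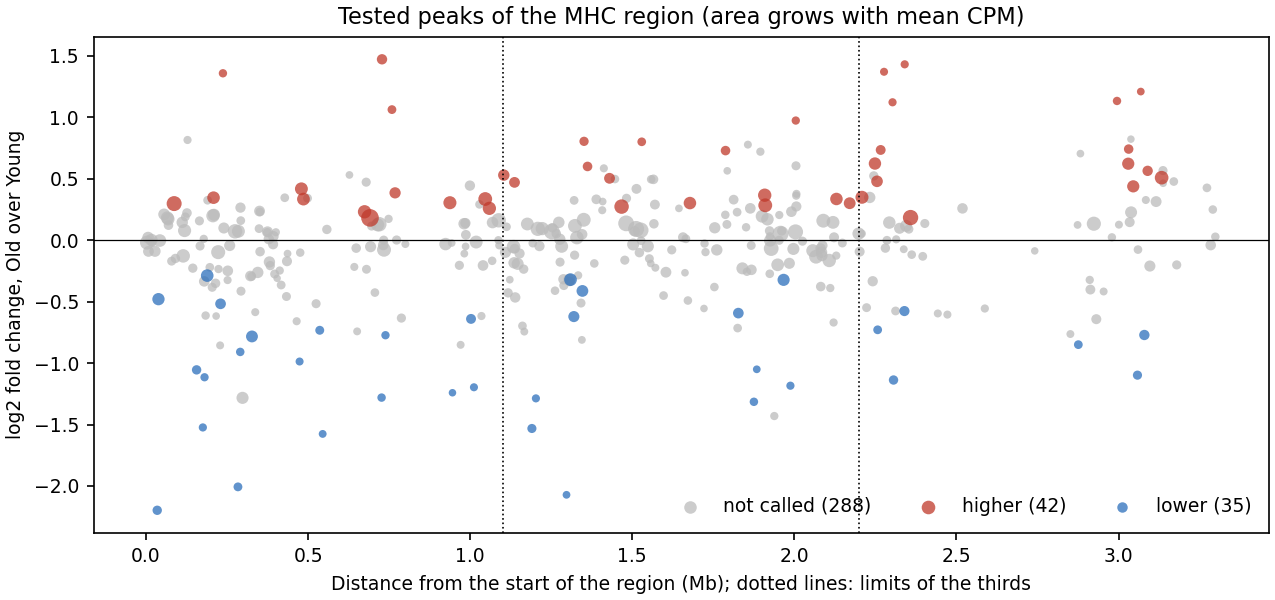
Log2 fold change, Old over Young (y axis), of the 365 tested member peaks by distance from the start of the region in Mb (x axis). Point area grows with mean CPM, and colours mark the 42 peaks called higher, the 35 called lower and the 288 not called. The largest points lie near 0, and the points below -1 are small.

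Of the gains, the smallest p belonged to a peak from 34777686 to 34778288, 602 bases wide. It had 22.7, 19.98, 26.3 and 14.3 CPM in Old replicates 1 to 4 and 6.53, 10.101, 6.50 and 6.46 CPM in Young replicates 1 to 4. All Old libraries lay above all Young ones, although Old replicate 4 was the lowest of its group and Young replicate 2 the highest of its own. The log2 fold change was 1.47 (SE 0.20, adjusted p = 5.23e-05 by edgeR). Only 853 bases before it, a peak from 34776517 to 34776833 went the other way. Its levels were 3.31, 2.10, 3.23 and 1.65 CPM in Old and 6.996, 3.998, 7.50 and 6.46 CPM in Young, a log2 fold change of -1.28 (SE 0.29, adjusted p = 0.00393 by edgeR). Here Old replicate 4 was the lowest of all libraries. These close neighbours thus moved in opposite directions.

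The widest gain was a peak of 2352 bases from 37181685 to 37184037, near the H2-M end. Its level was 67.2, 61.0, 68.3 and 59.7 CPM in Old against 42.0, 47.6, 44.5 and 45.5 CPM in Young. The groups were apart by more than either group's own range, with a log2 fold change of 0.51 (SE 0.08, adjusted p = 0.000109 by edgeR). A pair of gains lay near each other at 36297974 to 36299088 and 36304036 to 36305824. The former had 44.6, 42.3, 40.4 and 40.7 CPM in Old and 28.7, 28.2, 22.3 and 29.3 CPM in Young. The latter had 29.0, 30.7, 28.4 and 30.6 CPM in Old and 21.0, 22.9, 20.002 and 21.1 CPM in Young. At both, Old replicate 4 was within the spread of the other Old libraries, and neither overlapped with Young.

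Close to the other end, the peak from 34135802 to 34137755 had 86.6, 89.2, 99.4 and 96.3 CPM in Old and 80.2, 78.3, 73.8 and 70.0 CPM in Young, so a strong peak rose by 0.30 on the log2 scale (SE 0.07, adjusted p = 0.00332 by edgeR). The peak from 37079290 to 37080470 had 42.0, 39.5, 44.5 and 31.0 CPM in Old and 22.2, 24.8, 31.5 and 23.5 CPM in Young. It was called higher (edgeR adjusted p = 0.00148), but Old replicate 4 lay below Young replicate 3, the only overlap among the 10 named gains. Next to it, 555 bases on, a peak from 37081025 to 37081388 was also called higher, at 11.01 ± 2.76 against 6.52 ± 1.72 CPM (SD, n = 4 each). The other 4 named gains started at 35957863, 36390233, 37094844 and 35095698 and had log2 fold changes of 0.37, 1.43, 0.44 and 0.34.

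Among losses, the peak from 34084312 to 34084822, in the bin of the region's start, had the smallest p. It had 1.53, 2.31, 1.85 and 5.58 CPM in Old replicates 1 to 4 and 12.8, 9.47, 13.5 and 17.7 CPM in Young replicates 1 to 4, from 52 and 236 counts in all. Every Old library was below every Young one, and Old replicate 4 lay nearest to Young. The log2 fold change was -2.20 (SE 0.31, adjusted p = 0.000154 by edgeR), and -2.77 without Old replicate 4. A peak from 34087905 to 34088893, 3083 bases further on, was also called lower, at 27.9 ± 3.70 in Old against 39.0 ± 4.87 CPM in Young (SD, n = 4 each).

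At 34333417 to 34333760 the levels were 2.29, 0.631, 1.38 and 4.75 CPM in Old and 10.96, 8.21, 8.75 and 9.26 CPM in Young, a log2 fold change of -2.01 (SE 0.35, adjusted p = 0.000792 by edgeR), and -2.71 without Old replicate 4. The peak from 35240004 to 35240658 had 2.29, 2.10, 3.92 and 5.79 CPM in Old and 11.2, 9.05, 10.8 and 10.6 CPM in Young. In both, as at the loss with the smallest p, Old replicate 4 was the highest Old library and still below Young. The peak from 35346736 to 35347481 was close to closed in 3 Old libraries, at 0.509, 0.631 and 0.231 CPM, with 2.27 CPM in Old replicate 4 and 4.66, 2.95, 3.25 and 5.39 CPM in Young. These rest on 17 counts in Old and 72 in Young. The fitted log2 fold change of -2.07 became -3.06 once Old replicate 4 was left out.

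Losses were not limited to weak sites that nearly closed. The peak from 35369357 to 35370201 had 16.5, 14.3, 16.8 and 15.9 CPM in Old and 25.2, 23.6, 24.002 and 24.99 CPM in Young. All 4 Old libraries, replicate 4 included, sat together, and the log2 fold change was -0.62 (SE 0.12, adjusted p = 0.00123 by edgeR). At 36355581 to 36356120 Old libraries had 5.60, 5.68, 4.61 and 4.55 CPM and Young libraries 10.96, 9.05, 11.3 and 13.8 CPM, again with Old replicate 4 among its group. It lay 2423 bases past a peak from 36352437 to 36353158 that was called higher (log2 fold change 1.12 ± 0.30, SE). The remaining named losses started at 34205646, 34225138 and 37129144, with log2 fold changes of -1.06, -1.52 and -0.77. At all 10 named losses the Old libraries lay below the Young ones, which picking them by smallest p favours. Among all 35 member peaks called lower, the groups were apart at 27, which the call itself favours. The share over all called losses was not counted.

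**Figure D4:**
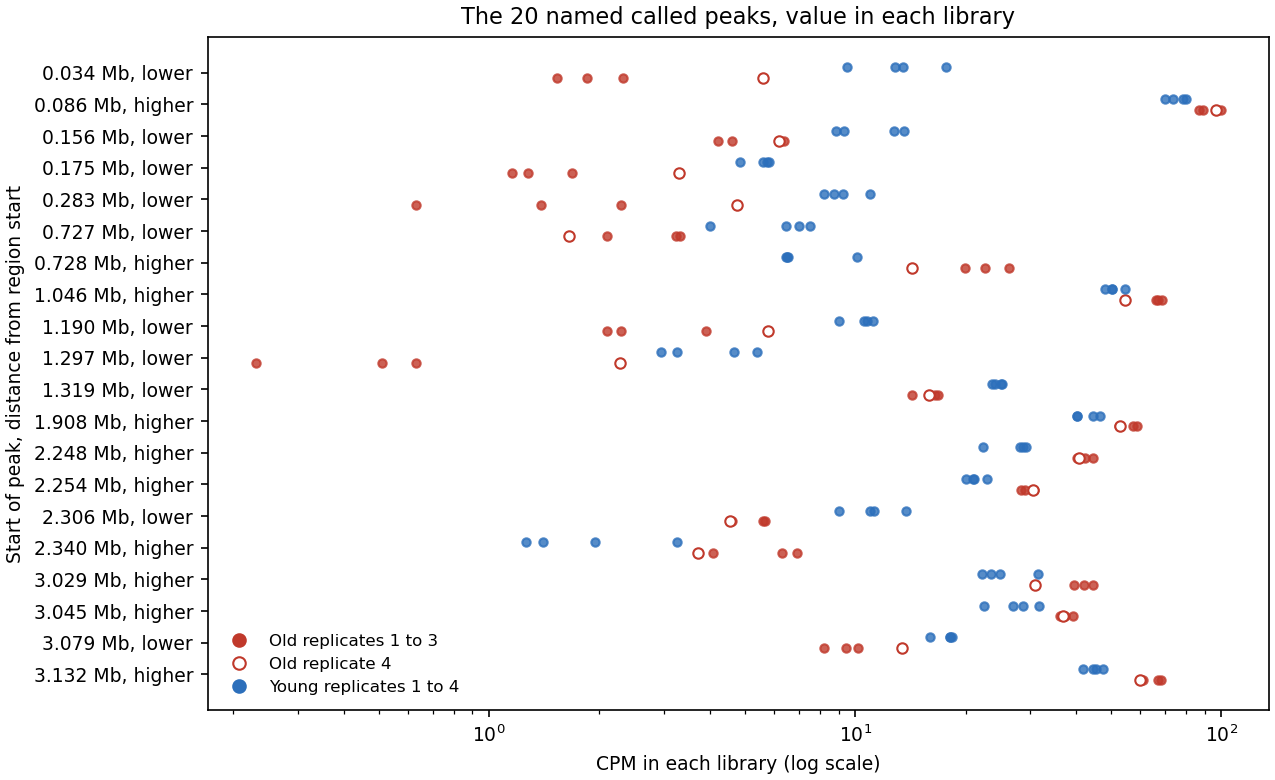
CPM in each library (log x axis) of the 10 called gains and 10 called losses with the smallest p, ordered by distance of the peak's start from the start of the region (y axis). Open circles are Old replicate 4. Old and Young points do not overlap, except for 1 gain, the one that starts at 37079290, and at several losses the open circle is the Old point nearest to Young.

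Old replicate 4 lay within the Young range more often than the other Old libraries. It did so at 8 of the 42 peaks called higher and 7 of the 35 called lower, where Old replicates 1, 2 and 3 did so at 2, 1 and 2 and at 0, 0 and 1. Summed over the peaks called lower it had 371 CPM, the other Old libraries 275 to 292 and the Young libraries 457 to 518. Those peaks were picked by a test that used these libraries, so the sums are a description.

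The strongest sites of the complex differed little between groups. The strongest, from 34740333 to 34741524, had 182, 183, 189 and 178 CPM in Old and 162, 166, 157 and 159 CPM in Young. The groups were apart, with a log2 fold change of 0.18 (SE 0.05, adjusted p = 0.0104 by edgeR), a call that loess offsets against peak strength removed (adjusted p = 0.224; 0.083 on the log2 scale). Of the 8 strongest, 1 more was called, from 36407665 to 36409122, at 99.2 ± 6.34 in Old against 87.2 ± 4.59 CPM in Young (SD, n = 4 each; edgeR adjusted p = 0.0451). This call was lost in 11 of 16 alternatives. The other 6 started at 36006805, 35561191, 35530434, 35301190, 35575525 and 36053021, had mean levels between 83.6 and 117 CPM in either group, fitted log2 fold changes of 0.053 to 0.14 and overlapping groups. The peaks nearest the ends of the region were not called either: the first member, from 34052603 to 34053241, had 59.3 ± 4.59 in Old and 60.1 ± 3.296 CPM in Young, and the last, from 37348142 to 37348915, 4.52 ± 1.25 and 4.48 ± 0.811 CPM (SD, n = 4 each). Just outside, the peak from 34045448 to 34047254 had 92.3 ± 6.74 and 83.6 ± 3.48 CPM and was not called, and the peak from 37358904 to 37359103 had too few counts to be tested.

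In bins of 100 kb most of the complex did not pass the test. Of 33 bins 32 could be tested, and 5 were higher and 3 lower in Old (edgeR adjusted p below 0.05 over all windows of the genome), together 25%, where 28.4% of all 16797 tested windows and 27.0% of those on the rest of chromosome 17 were called. By direction, 14.7% of all windows were higher and 13.8% lower. The libraries of the groups did not overlap in 7 of the 32 tested bins, or 21.9%, against 26.4% of all tested windows. Bins held a median of 16 peaks, and 12 bins had called peaks of both directions, 9 of gains alone, 6 of losses alone and 6 none. Windows outside the region were not counted this way. The 3 strongest bins, the one at the start of the region and those starting at 34250001 and 35950001, were not called. Without Old replicate 4 the one from 34250001 was called lower, with a log2 fold change of -0.20 against -0.11 with all libraries. The strongest bin had 558 ± 20.1 in Old and 558 ± 14.3 CPM in Young (SD, n = 4 each), although 2 of its peaks were called higher and 2 lower.

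The bin from 37150001 to 37250000 rose with the smallest p. It had 111, 98.7, 110 and 102 CPM in Old and 82.4, 86.2, 78.8 and 77.8 CPM in Young, a log2 fold change of 0.37 (SE 0.06, adjusted p = 0.000371 by edgeR). The bin before it, from 37050001 to 37150000, had 198, 195, 203 and 182 CPM in Old and 168, 170, 168 and 177 CPM in Young, with 5 of 14 tested peaks called higher and 2 lower. At 36250001 to 36350000 the bin had 242, 249, 231 and 257 CPM in Old and 224, 221, 185 and 202 CPM in Young, also with 5 peaks called higher, and 1 lower. In all 3 the groups were apart, and their calls held in each alternative run on these bins. The bin from 35450001 to 35550000 had 219, 215, 242 and 245 CPM in Old and 206, 212, 197 and 192 CPM in Young, and its call was lost without Old replicate 3 (edgeR adjusted p = 0.0543). The bin from 36750001 to 36850000 was nearly empty, with 2 peaks and 4.68 ± 1.54 against 2.09 ± 0.749 CPM (SD, n = 4 each). Only 1 of these peaks had enough counts to be tested, and it was not called, with a log2 fold change of -0.087. For the bin the log2 fold change was 1.13. Old replicate 4, at 2.58 CPM, lay within the Young range there, and the call was lost in 4 of 15 alternatives.

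The 3 bins that fell overlapped between groups through Old replicate 4 alone. From 34150001 to 34250000 the levels were 222, 219, 222 and 259 CPM in Old and 258, 248, 254 and 269 CPM in Young, with 4 peaks called lower and 0 higher (edgeR adjusted p = 0.0336). From 34550001 to 34650000 they were 22.1, 26.4, 26.1 and 32.9 CPM in Old and 38.3, 31.6, 34.5 and 41.3 CPM in Young (edgeR adjusted p = 0.0157). From 35850001 to 35950000 they were 110, 114, 116 and 126 CPM in Old and 125, 129, 138 and 144 CPM in Young, with 3 peaks called lower (edgeR adjusted p = 0.0208). In each, Old replicates 1 to 3 lay below all Young libraries. Their calls were lost in 6, 2 and 4 of 16 alternatives, in that order, each time by leaving out 1 library other than Old replicate 4. Called bins changed with the libraries: without Old replicate 4 there were 5 higher and 7 lower, without Old replicate 3 there were 3 higher, and the number lower was 1 without Old replicate 2 or Young replicate 3. Without Old replicate 1 or Young replicate 4, edgeR and DESeq2 both called 0 bins lower, with 3 at an unadjusted edgeR p below 0.05 in each case. The share of all windows called was not counted with a library left out. Of all tested peaks 30.0% were called without Old replicate 4, against 20.5% with all libraries.

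**Figure D5:**
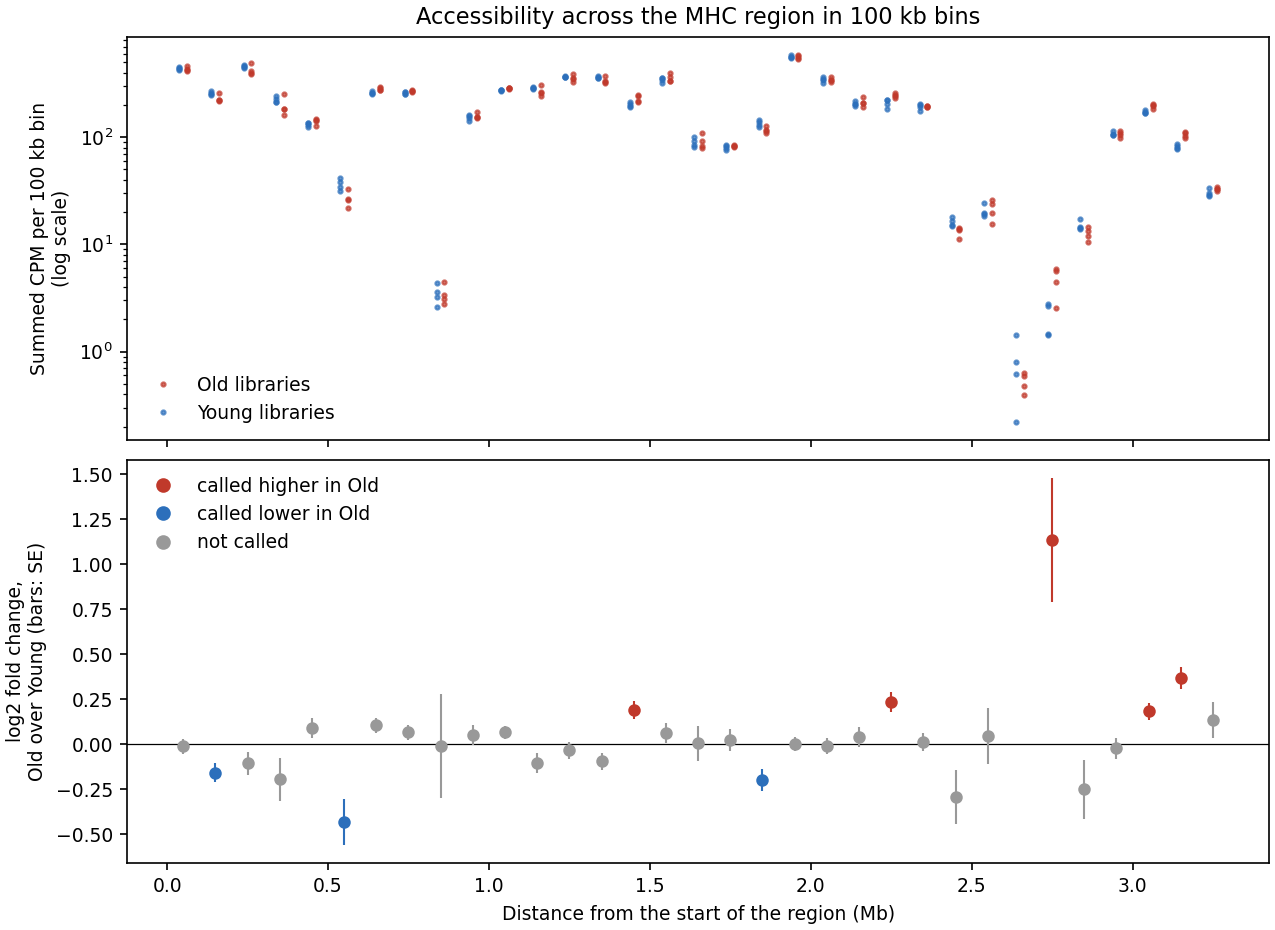
Upper panel, summed CPM per 100 kb bin in each library (log y axis) by distance from the start of the region in Mb. Lower panel, log2 fold change of tested bins, Old over Young, with SE; the 5 bins called higher and 3 called lower are coloured. Levels range widely along the region, up to 558 CPM, and the one large fold change is in a nearly empty bin.

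Along the complex the balance of gains and losses was not the same. In the segment of 1.1 Mb toward the H2-M genes (36250001 to 37350000), 15 of 69 tested peaks were higher and 6 lower, together 30.4%, against the 20.5% of all tested peaks. By direction, 21.7% were higher and 8.7% lower, against 10% and 10.4% of all tested peaks. The groups did not overlap at 29% of its tested peaks, against 21.1% of all. In the first segment, toward H2-K1, 13 of 142 were higher and 18 lower, together 21.8%. In the middle segment 14 of 154 were higher and 11 lower, together 16.2%. The summed level of the segment toward the H2-M genes was 1010, 999, 1010 and 958 CPM in Old and 900, 895, 858 and 886 CPM in Young replicates 1 to 4. All Old libraries lay above all Young ones, and the ratio of the means was 1.12. How many segments of this length elsewhere have groups apart was not counted, and 26.4% of all tested 100 kb windows did. As a share of chromosome 17 counts it was 1.78 ± 0.046% in Old and 1.58 ± 0.037% in Young (SD, n = 4 each), again without overlap. The other segments had ratios of 1.003 and 1.01, with overlapping groups. In this segment 10 to 20 peaks were higher and 3 to 7 lower with each library left out in turn, with 3 lower without Old replicate 2. Over all tested peaks 13.8% to 30.0% were called in those runs. DESeq2 called 12 of the 69 higher and 3 lower, where it called 14.0% of all tested peaks. With a mean count of at least 50, 7 were higher and 2 lower, where 21.7% of all tested peaks were called. For that run and those with a library left out, the tested peaks of this segment were not counted. The segment's share called in those runs is therefore not known here. A difference between segments was not tested.

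Accessible sites were unevenly spread. Bins held 1 to 24 peaks, and 7 of the 33 held at most 7. The widest stretch without a deposited peak ran for 82.4 kb from 34850345 to 34932728. The next 3 lay end to end around single weak peaks between 36568931 and 36791210 and measured 68.3, 74.7 and 78.5 kb. Class I and complement genes of the complex occur in near-identical copies, and how reads that map to several copies were treated is not given in the sources used here, so levels at such copies are uncertain.

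Neighbouring called peaks could move together or apart. Within the region 21 pairs of tested neighbours were both called, 8 of them both higher, 5 both lower and 8 opposite. Such pairs were not counted outside the region. Over called peaks in sequence, whatever lay between them, 45 of 76 adjacent pairs had the same direction, or 59.2%, against 59.3% on the rest of chromosome 17. The closest pair, 394 bases apart, rose together: at 35957863 to 35959129 the means were 55.4 ± 3.15 in Old against 42.9 ± 3.20 CPM in Young, and at 35959523 to 35960847 they were 64.4 ± 4.02 against 52.9 ± 7.29 CPM (SD, n = 4 each). The next closest, 429 bases apart, were opposite: levels were 10.13 ± 0.817 against 15.1 ± 3.28 CPM at 36389185 to 36389804, and at 36390233 to 36390462 they were 5.26 ± 1.595 against 1.96 ± 0.907 CPM. The longest run of gains held 7 called peaks among 46 tested between 35400959 and 35838030, and the longest run of losses held 6 among 30 between 35240004 and 35396377, right before it. These pairs and runs were chosen after their values were seen.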

How the data were processed

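The authors deposited raw, whole-number counts of reads for 1 common list of peaks in 8 libraries. Per the submitters' processing notes, mm9 was the build, and MACS2, Bowtie2, Picard, SAMtools, FastQC and Trim Galore were used, with no versions stated. How peaks were merged and reads counted, whether read ends were shifted, and what was done with reads of several matches is not given in the sources used here. Sites open in 1 group may be over-represented where peaks were listed from these same libraries.

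Columns were mapped by sample title. The filter filterByExpr of edgeR, with its minimum count of 10 and total of 15, passed 73164 peaks. Deposited counts were turned into CPM with TMM library scaling. Old and Young were compared over the whole table with edgeR 4.0.16 (glmQLFit, robust, and glmQLFTest; R 4.3.3) and no term but the group, and a peak was called at an adjusted p below 0.05. SEs were derived from the fold change and its F statistic. Counts were summed by peak midpoint over 100 kb windows of the genome, on a grid from the region's start, and tested alike. The biological coefficient of variation was 0.114, and every pair of libraries differed beyond sampling noise, with a chi-square of at least 1.19 per peak. The code was tested on simulated data.

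The region, the lists and the rules were chosen with earlier results of these data known. Named peaks are the 10 called in each direction with the smallest p, the 8 strongest and the 2 nearest the ends. Named bins are up to 6 called in each direction and the 3 strongest. Others were named after their values were seen. Marker and gene lists were planned but, with no mm9 annotation used, not analysed at peaks. The H2 lists were used for promoter letters alone. Alternatives were DESeq2 1.42.0 size factors, total counts, loess offsets, a mean count of 50 or more, no count filter, the test of DESeq2, limma 3.58.1 voom, a replicate block, other windows and each library left out.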

Additional observations from a re-analysis of the deposited data

Results flagged for a closer look

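Values of 104 groups of 4 libraries were searched for a single distant library, and 6 were found. By chance about 1 in 20 groups, here 5.2, would have one. Old replicate 4 was low at the peak from 34052603 to 34053241 (52.5 CPM, the others 60.6 to 62.1) and high in the bin from 34150001 to 34250000 (259 CPM, the others 219 to 222). Young replicate 4 was low at that same first peak of the region (55.1 CPM, the others 61.2 to 62.3). Young replicate 2 was high at the peak from 34777686 to 34778288 (10.101 CPM, the others 6.46 to 6.53). Young replicate 3 was low at the peaks from 36297974 to 36299088 (22.3 CPM, the others 28.2 to 29.3) and from 37129144 to 37129998 (16.0 CPM, the others 18.1 to 18.3).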

How the results depend on the processing

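No member peak called with all libraries was called in the opposite direction in any alternative run. The 20 gains and losses named for their p kept their calls wherever tested, but were picked by p from these same libraries. A mean count of at least 50 left some of them untested. Of all 42 peaks called higher and 35 called lower, DESeq2's test also called 26 and 20. The numbers were 31 and 18 without Old replicate 1, 25 and 21 without Old replicate 3, and 40 and 33 without Old replicate 4. With DESeq2's test 26 member peaks were higher and 21 lower, together 12.9%, against 14.0% of all tested peaks. A mean count of at least 50 leaves 153 member peaks to test. Of these 19 were higher and 11 lower, together 19.6%, against 21.7% of all tested peaks. With each library left out in turn 26 to 49 were higher and 18 to 61 lower, together 12.6% to 29.6%, against 13.8% to 30.0% of all tested peaks. Other scalings gave 33 to 39 higher and 30 to 35 lower. Over those left-out libraries 3 to 5 bins were higher and 0 to 7 lower. Windows that start at whole 100 kb gave 1 bin lower, and windows of 50 kb 10 higher and 6 lower. Windows of 300 kb gave 1 higher and 0 lower of 11 (edgeR, with 1 lower at an unadjusted p below 0.05). DESeq2 also called 0 of these lower. The share of all windows called was not counted in these runs or with a library left out. These bin counts are therefore not a result about the complex. The log2 ratio of the region to the rest of the chromosome ranged from 0.018 to 0.055, Old minus Young. With the replicate number as a block 43 member peaks were higher and 37 lower, and 5 bins higher and 3 lower, so it moved no count by over 1.5 times. Same-numbered libraries had correlations of their deviations of -0.014 to 0.18, and 4 of 8 libraries were closest to their own number, so the numbers were not taken as pairs; what they stand for is not stated in the labels used here. At 67 counts over 8 libraries, the least of any tested member, small changes could not be detected. At any level, a peak that was not called is not shown to be unchanged.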

Other observations

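The 114 member peaks with too few counts to be tested were narrow, with a median width of 255 bases and a median level of 1.12 CPM. Their summed level was 123, 104, 117 and 145 CPM in Old replicates 1 to 4 and 131, 140, 137 and 152 CPM in Young replicates 1 to 4. Old replicates 1 to 3 lay below all Young libraries and Old replicate 4 among them. With no count filter 48 member peaks were called higher and 35 lower, together 17.3%, near the 16.1% of all peaks called in that run. These included all 42 of the peaks called higher with the filter and 29 of the 35 called lower.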
